A study of Homo sapiens with 12 samples.

Results

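The 9 genes described here encode histone demethylases that have been linked to drug tolerance: KDM1A, KDM2A, KDM2B, KDM3A, KDM4A, KDM4B, KDM5A, KDM5B and KDM6B. They were taken by gene symbol from a table of 57905 genes, and each symbol matched 1 row. The study sequenced bulk RNA, as stranded mRNA libraries, from PC9, HCC827 and HCC4006, which are established lines of human lung cancer cells that carry EGFR mutations. The 12 libraries fall into 6 groups of 2, by line and treatment. Control cells of each line received DMSO, the solvent, and were harvested after 24 hours. The cells called dormant received 100 nM osimertinib, which inhibits EGFR, together with 30 nM trametinib, which inhibits the kinase MEK, for 2 weeks and were grown on larger plates. All groups shared 1 medium, RPMI-1640 with serum. Drug, duration and plate size changed together, so their parts in any difference cannot be told apart. Plates were set up in duplicate, and nothing says that they came from separate cultures, so p-values measure only the spread between these libraries, which may be technical. Fewer cells of a kind and less RNA per cell cannot be told apart in such bulk samples.

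Histone demethylases remove methyl groups from lysines of histone tails. KDM1A is a flavin-dependent enzyme that works with the CoREST complex, whereas the other genes encode Jumonji enzymes, which need iron, oxygen and 2-oxoglutarate. Methylation of H3K4 marks promoters and enhancers in use, methylation of H3K36 marks transcribed genes, and methylation of H3K9 or H3K27 accompanies silencing. KDM5A is known from earlier work for its role in PC9 cells that survive EGFR inhibition without a resistance mutation, often called drug-tolerant persisters.

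Levels are in FPKM, in which fragments are divided by the length of a gene and the size of its library, so they can be set side by side between genes. No counts were used, so the depth of each library is unknown. Differences are dormant minus DMSO on the log2(FPKM + 1) scale, which understates the change of genes with low values. They are given with their SE from limma and with a p-value adjusted by Benjamini-Hochberg over all 14699 genes that reached 1 FPKM in at least 2 libraries. An adjusted p under 0.05 (two-sided) made a call.

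A pair of libraries stood apart. The second HCC4006 dormant library correlated with its replicate at r = 0.654 over the tested genes, gave 6.73 FPKM for GAPDH against 3755 to 19645 in the other libraries, and held 20.0% of its summed FPKM in mitochondrial tRNA genes against 0.513% to 2.66%. The second HCC827 DMSO library correlated with its replicate at r = 0.909, against 0.979 to 0.991 in the remaining groups. The main results that rest on them are given with and without them. Leaving 1 or both out also changed how many genes of the whole table were called: without the second HCC4006 dormant library 35.7% of tested genes were called in the mean of the lines, and without the first, so that the deviating library stood alone for dormant HCC4006, 50.3%. Of the epithelial markers, 6 of 6 exceeded 1 FPKM, with summed levels of 1250 to 16750 FPKM in DMSO libraries and 962 to 22970 FPKM in dormant ones, while the lung lineage factor NKX2-1 was listed at 0 in all PC9 libraries. The summed level of 3 fibroblast markers lay between 0.385 and 1.58 FPKM in DMSO libraries and between 0.92 and 375.1 FPKM in dormant ones. COL1A2 made up most of the latter, at 367.7 and 249.6 FPKM in dormant HCC4006, where COL1A1 stood at 7.45 and 12.2 FPKM and PDGFRB at 0 and 1.13 FPKM. The part of this in the HCC4006 results below was not tested.

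Of the 9 genes, 7 passed the filter on low values. KDM4B and KDM6B did not, since their highest values were 0.36 and 0.405 FPKM. Among the 7 tested, KDM5B alone was called in the mean of the lines, as higher in dormant cells, and 0 were called lower. Over all tested genes, 15.4% were called in either direction, 10.9% as higher and 4.55% as lower. The others did not pass, though the differences of KDM4A and KDM5A were positive at an unadjusted p under 0.05, which with KDM5B makes 3 of 7. The share of all tested genes at an unadjusted p under 0.05 was not counted. Unadjusted counts, here and below, therefore say nothing about these genes or any list as a set. The differences of the 7 genes had a median of 0.56, with 6 above zero and 1 below. Over all tested genes the median was 0.22, and 63.5% of differences were above zero. That general shift depended on scaling: with median of ratios scaling the median over all genes was 0.03, and 1193 genes were called higher and 1256 lower, in place of 1599 and 669. The 7 genes then had a median of 0.33, with 5 above zero and 2 below, and 2 in place of 3 at an unadjusted p under 0.05. Of all tested genes, 52% then had a difference above zero. KDM5B was called under this scaling too, at 1.22 (adjusted p = 0.0108, limma).

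**Figure D1:**
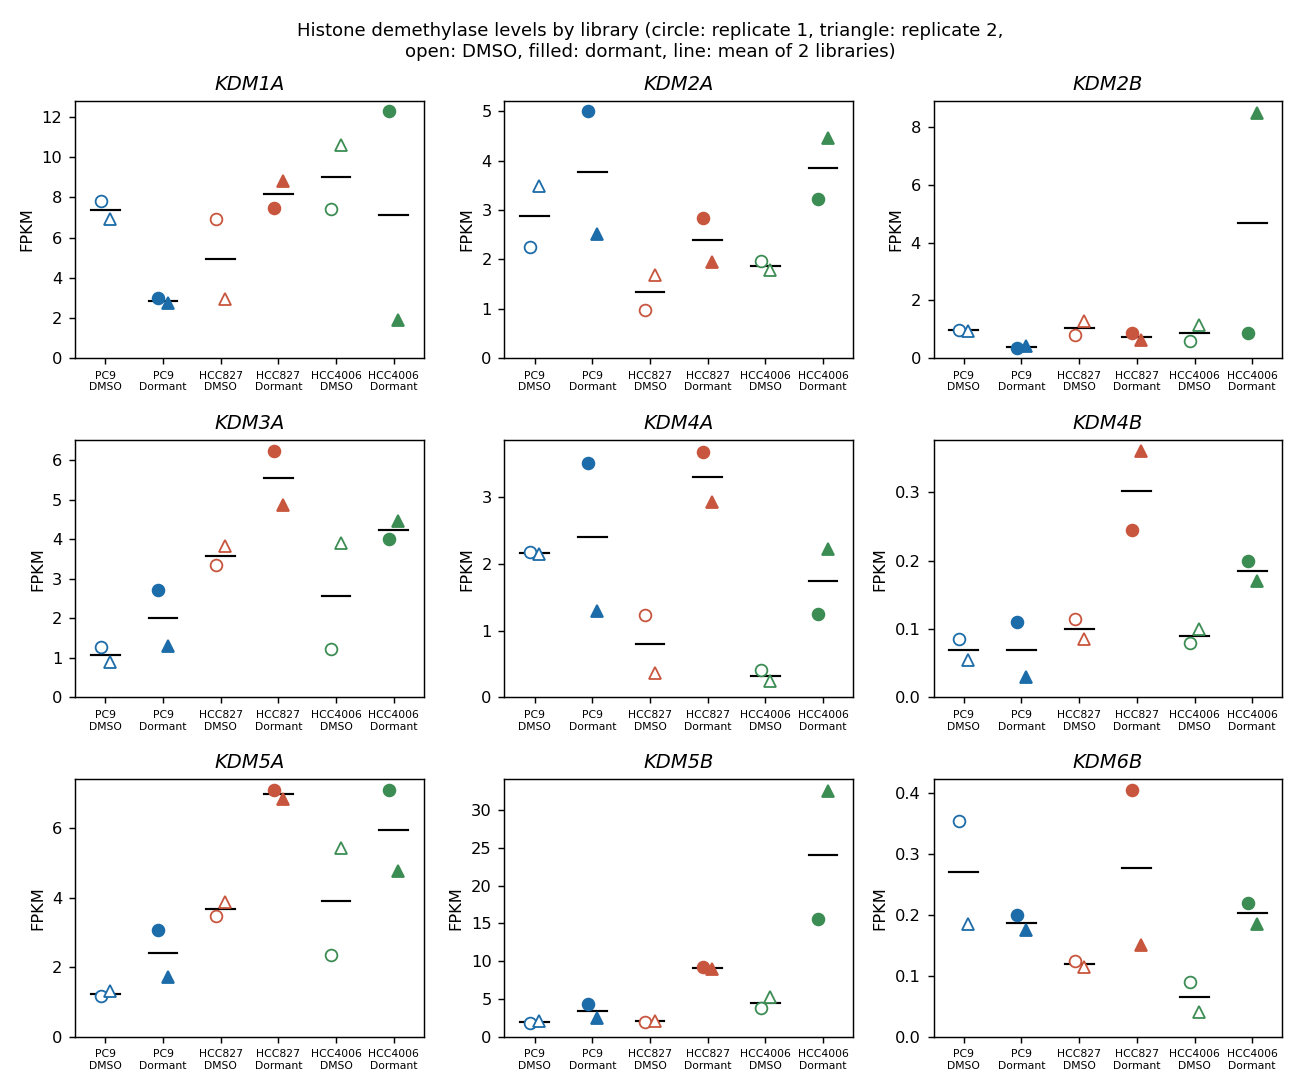
FPKM of the 9 histone demethylases (one panel a gene, each with its own vertical axis from 0) in the 12 libraries, by cell line and treatment; points are libraries and lines are means of 2. KDM5B lay higher in both dormant libraries of each line than in both DMSO libraries, and KDM4B and KDM6B stayed below 0.41 FPKM throughout.

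The promoters of KDM5B, which carried the call, and of KDM3A and KDM5A, whose levels ran most closely together, are shown as the 250 bases before the annotated start, 5′ to 3′ on the gene's strand, from RefSeq on GRCh38.p14. The expression values were made on hg19 or GRCh37, and no coordinate is carried between the builds. The windows are chr1:202808422-202808671 on the minus strand for KDM5B, chr12:389321-389570 on the minus strand for KDM5A and chr2:86441121-86441370 on the plus strand for KDM3A. Capitals mark the CCAAT box, found in KDM3A at 128 and 75 bases before the start.
KDM5B promoter: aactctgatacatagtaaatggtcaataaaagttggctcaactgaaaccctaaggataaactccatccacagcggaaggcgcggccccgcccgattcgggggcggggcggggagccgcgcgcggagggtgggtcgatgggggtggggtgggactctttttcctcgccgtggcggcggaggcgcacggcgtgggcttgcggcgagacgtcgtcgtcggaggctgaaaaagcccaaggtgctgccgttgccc
KDM5A promoter: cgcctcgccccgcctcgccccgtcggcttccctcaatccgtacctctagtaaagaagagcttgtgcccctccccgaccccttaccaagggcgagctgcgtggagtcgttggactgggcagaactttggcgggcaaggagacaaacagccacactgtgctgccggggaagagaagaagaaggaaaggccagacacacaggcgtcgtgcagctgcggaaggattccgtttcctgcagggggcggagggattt
KDM3A promoter: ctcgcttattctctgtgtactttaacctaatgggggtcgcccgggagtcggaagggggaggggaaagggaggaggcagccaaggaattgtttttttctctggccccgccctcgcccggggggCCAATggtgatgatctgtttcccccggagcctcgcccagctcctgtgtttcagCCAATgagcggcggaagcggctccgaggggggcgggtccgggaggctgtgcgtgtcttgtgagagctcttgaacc

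All 9 genes matched a RefSeq promoter. Of these windows, 4 held a CCAAT box (letters CCAAT, either strand), namely those of KDM2B, KDM3A, KDM4A and KDM4B, beside 33% of 27305 promoters. ACGTG, a form of the hypoxia response core, was in the windows of KDM1A and KDM4B and in 18.7% of promoters. It overlaps itself where CACGTG is read on both strands. The form GCGTG was not searched, though the printed KDM3A, KDM5A and KDM5B windows hold these letters. The TEAD motif GGAATG, the E2F motifs TTTGGCGC and TTTCGCGC, the CRE TGACGTCA and the AP-1 motif TGANTCA were in 0 of the 9 windows and in 11.9%, 0.996%, 1.77% and 6.6% of promoters. A match is only a description of these letters. GC content of the 9 windows ran from 54.0% to 75.6%, beside a median of 58% over all promoters. Neither the KDM5A nor the KDM5B window held any of the motifs searched.

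KDM5B (ENSG00000117139) removes methyl groups from H3K4 and is known as a marker of slow-cycling tumour cells. In PC9 its level was 1.75 and 2.00 FPKM in the DMSO libraries and 4.38 and 2.51 FPKM in the dormant ones. HCC827 gave 2.00 and 2.07 FPKM with DMSO and 9.27 and 8.91 FPKM in dormancy. HCC4006 gave 3.72 and 5.29 FPKM with DMSO and 15.5 and 32.5 FPKM in dormancy. Both dormant libraries lay above both DMSO libraries in every line, and the narrowest gap was that of PC9. The ratio of group means was 1.84 in PC9, 4.47 in HCC827 and 5.33 in HCC4006, the last being 3.44 without the library that stood apart.

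KDM5B rose by 1.48 ± 0.26 in the mean of the lines (95% confidence interval 0.90 to 2.06; limma adjusted p = 0.0052). With each of the 12 libraries left out in turn the adjusted p (limma) ran from 9.908e-05 to 0.0287, and without both libraries that stood apart the difference was 1.32 (adjusted p = 0.000658). By line the difference was 0.60 ± 0.45 in PC9 (adjusted p = 0.753), 1.73 ± 0.45 in HCC827 (adjusted p = 0.062) and 2.11 ± 0.45 in HCC4006 (adjusted p = 0.0269, limma). HCC4006 was thus the single line with a called gene among the 7, where 6.07% of tested genes were called, 4.88% as higher and 1.18% as lower. That call was lost in 8 of 12 cases with a library left out: each of the 4 PC9 libraries (adjusted p = 0.0532 to 0.0698), each HCC827 dormant library (0.0643 and 0.0644) and each HCC4006 DMSO library (0.213 without the first, 0.0838 without the second). It was also lost with no filter (0.052), median of ratios scaling (0.0578), quantile normalization (0.0512), a replicate block (0.0538), quality weights (0.438) and the line fitted alone (0.604). Over all tested genes 0.163% were called in HCC4006 with quality weights and 0% with the line fitted alone. A loss in these settings therefore says nothing about KDM5B. Without both libraries that stood apart, KDM5B was called in HCC4006 at 1.60 (adjusted p = 0.0129) and in HCC827 at 1.75 (adjusted p = 0.00828), where 14.9% and 11.1% of tested genes were called higher. HCC827 was also called without the first HCC4006 dormant library (adjusted p = 0.00414) or the second (adjusted p = 0.00391), with 20.2% of tested genes called in that line in either setting.

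KDM5A (ENSG00000073614) also acts on H3K4. With DMSO its level was 1.17 and 1.31 FPKM in PC9, 3.47 and 3.88 FPKM in HCC827, and 2.35 and 5.44 FPKM in HCC4006. In dormant cells it was 3.07 and 1.72 FPKM in PC9, 7.09 and 6.85 FPKM in HCC827, and 7.11 and 4.78 FPKM in HCC4006. PC9 and HCC827 showed no overlap between dormant and DMSO libraries, while in HCC4006 the second DMSO library lay above the second dormant one. Group means stood in ratios of 1.94, 1.90 and 1.53, and without the libraries that stood apart the last pair were 2.01 and 1.83. The mean difference was 0.64 ± 0.25 and did not pass (95% interval 0.08 to 1.19; limma adjusted p = 0.112). Without the second HCC4006 dormant library it was 0.72 and called (adjusted p = 0.0299), and without both libraries that stood apart it was 0.74 (adjusted p = 0.0272), a setting in which 30% of tested genes were called higher and 12.8% lower. KDM5A also differed most between the columns deposited for each library, by a median of 0.18 and at most 0.54 on the log2(FPKM + 1) scale.

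KDM1A (ENSG00000004487), the flavin-dependent H3K4 demethylase also called LSD1, had differences of unlike sign in the lines, and none passed the test with all libraries. PC9 gave 7.83 and 6.95 FPKM with DMSO and 2.98 and 2.73 FPKM in dormancy, the lower level in both dormant libraries. HCC827 gave 6.91 and 2.93 FPKM with DMSO and 7.48 and 8.83 FPKM in dormancy. HCC4006 gave 7.41 and 10.6 FPKM with DMSO, and its dormant libraries held the highest and the lowest value of all 12, at 12.3 and 1.92 FPKM. The dormant group mean was thus 0.386 of the DMSO mean in PC9, 1.66 times it in HCC827 and 0.787 of it in HCC4006. Without the libraries that stood apart the last pair were 1.18 and 1.36, which turns the direction in HCC4006. KDM1A passed in no line: the difference was -1.12 ± 0.66 in PC9 (adjusted p = 0.608), 0.71 ± 0.66 in HCC827 (adjusted p = 0.629) and -0.67 ± 0.66 in HCC4006 (adjusted p = 0.51, limma).

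In PC9 the KDM1A difference of -1.12 was called without both libraries that stood apart (adjusted p = 0.0113), neither of which is from PC9; there 13.1% of tested genes were called higher and 8.65% lower. The mean difference was -0.36 ± 0.38 (95% interval -1.21 to 0.49; limma adjusted p = 0.541). It came to 0.01 without the second HCC4006 dormant library. Without the first, which leaves the deviating library as the only dormant one of that line, it was -0.72, and the HCC4006 difference was -1.76.

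**Figure D2:**
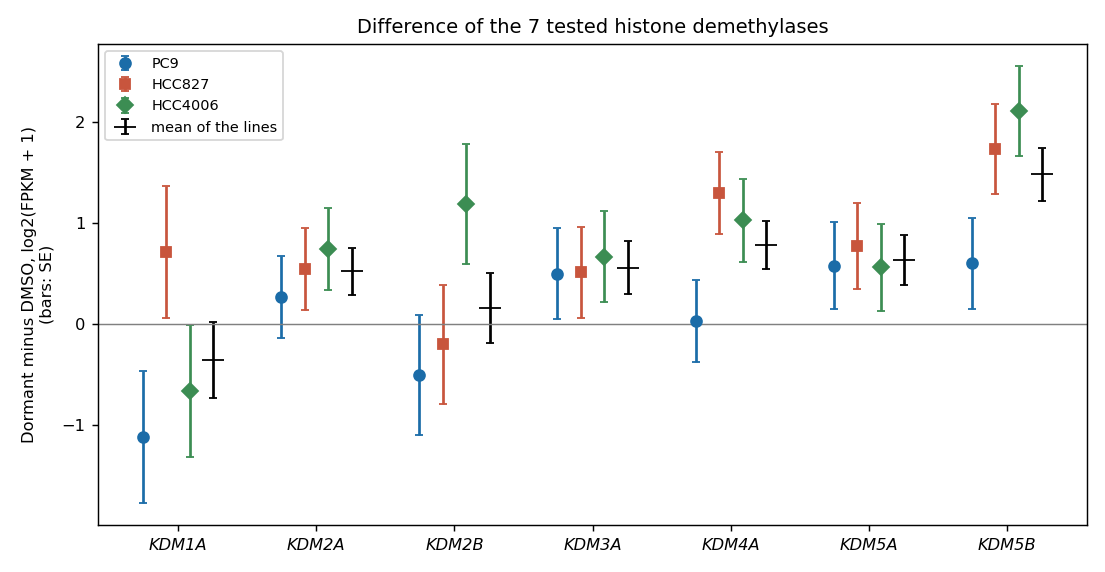
Dormant minus DMSO on the log2(FPKM + 1) scale for the 7 tested genes, by line and as the mean of the lines; bars are SE from limma. KDM5B lies highest in the mean at 1.48, and KDM1A runs from -1.12 in PC9 to 0.71 in HCC827.

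KDM3A (ENSG00000115548) removes mono- and dimethyl marks from H3K9 and is known as a target of hypoxia signalling. With DMSO it stood at 1.29 and 0.885 FPKM in PC9, 3.35 and 3.83 FPKM in HCC827, and 1.22 and 3.90 FPKM in HCC4006. Dormant cells gave 2.71 and 1.31 FPKM in PC9, 6.25 and 4.86 FPKM in HCC827, and 4.01 and 4.46 FPKM in HCC4006. Every dormant library exceeded both DMSO libraries of its line, though in PC9 and HCC4006 the nearest values differed by little. Ratios of group means were 1.85, 1.55 and 1.66, the last pair being 1.66 and 1.57 without the libraries that stood apart. The mean difference was 0.56 ± 0.26 and did not pass (95% interval -0.02 to 1.14; limma adjusted p = 0.17), nor did it with any library left out (adjusted p = 0.0749 to 0.378) or without both that stood apart (0.111).

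KDM4A (ENSG00000066135) removes trimethyl marks from H3K9 and H3K36. It stood at 2.18 and 2.15 FPKM in PC9 DMSO libraries and at 3.52 and 1.30 FPKM in the dormant ones, which lay on either side of the controls. HCC827 gave 1.24 and 0.365 FPKM with DMSO and 3.69 and 2.93 FPKM in dormancy. HCC4006 gave 0.415 and 0.24 FPKM with DMSO and 1.26 and 2.23 FPKM in dormancy. Both dormant libraries were thus higher in HCC827 and HCC4006, with ratios of means of 4.14 and 5.32, and 2.68 and 3.83 without the libraries that stood apart. Differences were 1.30 ± 0.41 in HCC827 (adjusted p = 0.12), 1.03 ± 0.41 in HCC4006 (adjusted p = 0.134) and 0.03 ± 0.41 in PC9 (adjusted p = 1, limma), where the sign turned with median of ratios scaling (-0.06), quantile normalization (-0.13) and a pseudocount of 0.1 (-0.01).

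The mean difference of KDM4A, 0.78 ± 0.24 (95% interval 0.26 to 1.31), lay just outside the threshold (limma adjusted p = 0.0511). It was called without the second PC9 dormant (adjusted p = 0.043), the first HCC827 DMSO (0.0418), the first HCC4006 dormant (0.00721) or the second HCC4006 dormant library (0.0294), where 8.69%, 14.9%, 50.3% and 35.7% of tested genes were called, and at 0.58 without both libraries that stood apart (0.0491). In HCC4006 the difference was 1.29 without the first dormant library of that line, which leaves the deviating one alone. In PC9 the difference was -0.46 without the first dormant library.

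KDM4B (ENSG00000127663), a close relative of KDM4A, was at 0.03 to 0.36 FPKM in the 12 libraries. PC9 gave 0.085 and 0.055 FPKM with DMSO and 0.11 and 0.03 FPKM in dormancy. HCC827 gave 0.115 and 0.085 FPKM with DMSO and 0.245 and 0.36 FPKM in dormancy. HCC4006 gave 0.08 and 0.10 FPKM with DMSO and 0.20 and 0.17 FPKM in dormancy. The dormant libraries were above the DMSO libraries in HCC827 and HCC4006 and on either side of them in PC9, all at levels the filter leaves out. Fitted with no filter, the mean difference was 0.12 ± 0.05 (limma adjusted p = 0.262).

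KDM2A (ENSG00000173120) acts on dimethylated H3K36 and binds unmethylated CpG islands. With DMSO its level was 2.25 and 3.50 FPKM in PC9, 0.975 and 1.69 FPKM in HCC827, and 1.96 and 1.78 FPKM in HCC4006. Dormancy gave 5.01 and 2.52 FPKM in PC9, 2.84 and 1.95 FPKM in HCC827, and 3.23 and 4.46 FPKM in HCC4006. Dormant and DMSO libraries overlapped in PC9 and were apart in HCC827 and HCC4006, with ratios of means of 1.31, 1.80 and 2.06, the last pair being 2.45 and 1.73 without the libraries that stood apart. The mean difference was 0.52 ± 0.23 and did not pass (95% interval -0.0039 to 1.04, limma adjusted p = 0.157). It was 0.58 without the first HCC4006 dormant library and 0.53 without both libraries that stood apart. In PC9 the difference was 0.27 ± 0.41, and -0.12 without the first dormant library.

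KDM2B (ENSG00000089094), its paralogue, is also part of a variant Polycomb complex 1. KDM2B reached 1 FPKM in 3 of 12 libraries, the second HCC827 DMSO, the second HCC4006 DMSO and the second HCC4006 dormant library. Without the libraries that stood apart, only the second HCC4006 DMSO library did, and the gene would not have passed the filter. PC9 gave 0.985 and 0.95 FPKM with DMSO and 0.355 and 0.405 FPKM in dormancy, with no overlap. HCC827 gave 0.785 and 1.27 FPKM with DMSO and 0.875 and 0.625 FPKM in dormancy. HCC4006 gave 0.60 and 1.16 FPKM with DMSO, and its dormant libraries 0.88 and 8.51 FPKM. The one high value came from the library that stood apart, with which the HCC4006 ratio of means was 5.33 and without which it was 1. The mean difference was 0.16 ± 0.34 (95% interval -0.61 to 0.92; limma adjusted p = 0.782) and turned negative with median of ratios scaling (-0.03), quantile normalization (-0.12), without that library (-0.23) and without both (-0.18). With the deviating library as the only dormant one of HCC4006, KDM2B was called there at 2.35 (adjusted p = 6.717e-05), as were 58.6% of tested genes, and in the mean at 0.55 (adjusted p = 0.00915). In PC9 the dormant mean was 0.393 of the DMSO mean and the difference was -0.51 ± 0.59 (limma adjusted p = 0.937).

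KDM6B (ENSG00000132510), also called JMJD3, removes methyl groups from H3K27. Its values ran from 0.04 FPKM in the second HCC4006 DMSO library to 0.405 FPKM in the first HCC827 dormant library. PC9 gave 0.355 and 0.185 FPKM with DMSO and 0.20 and 0.175 FPKM in dormancy. HCC827 gave 0.125 and 0.115 FPKM with DMSO and 0.405 and 0.15 FPKM in dormancy, and HCC4006 0.09 and 0.04 FPKM against 0.22 and 0.185 FPKM. As for KDM4B, the dormant libraries lay above the DMSO libraries in HCC827 and HCC4006 but not in PC9. With no filter the mean difference was 0.09 ± 0.08 (limma adjusted p = 0.571).

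Counted over all 9 genes, both dormant libraries lay above both DMSO libraries for 3 genes in PC9 (KDM3A, KDM5A and KDM5B), 8 in HCC827 (all but KDM2B) and 6 in HCC4006 (KDM2A, KDM3A, KDM4A, KDM4B, KDM5B and KDM6B). Among the 7 tested these were 3, 6 and 4, beside 35.5%, 40% and 30.4% of all tested genes. Both lay below for KDM1A and KDM2B in PC9 and for 0 genes in the other lines, beside 27%, 19.4% and 15.8% of tested genes. KDM3A and KDM5B were above in all 3 lines, as were 9.12% of tested genes. Such comparisons of libraries, here and for each gene above, use FPKM without rescaling. The factors by which median of ratios scaling divides were 0.735 for the second HCC827 DMSO library and 1.19 and 1.14 for dormant HCC827. Dividing by them would make some of these values overlap, among them those of KDM3A in HCC827 and HCC4006. The counts were not repeated with scaling. By limma, 0 of 7 were called in PC9 or HCC827, where 2.71% and 4.5% of tested genes were called, 1.82% and 3.06% as higher and 0.891% and 1.44% as lower. At an unadjusted p under 0.05 there were 0 in PC9, and KDM4A and KDM5B, both higher, in HCC827.

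The differences were not shown to vary between lines. In the F test of the 3 within-line differences 0 of 7 genes were called, also at an unadjusted p under 0.05, beside 1.48% of tested genes called (limma). The lowest adjusted p was 0.454, for KDM5B, and the highest 0.974, for KDM3A. KDM1A (adjusted p = 0.01), KDM2B (0.000341) and KDM5B (0.0165) were called different between lines only when the first HCC4006 dormant library was left out, with the deviating library standing for the line; 54.8% of tested genes were called in that setting.

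Between the untreated lines, KDM5A and KDM3A had their lowest DMSO means in PC9, at 1.24 ± 0.10 and 1.09 ± 0.28 FPKM (SD, n = 2), while KDM4A had its highest there, at 2.16 ± 0.02 FPKM. HCC4006 had the highest DMSO mean of KDM5B, 4.51 ± 1.11 FPKM, and the lowest of KDM4A, 0.328 ± 0.124 FPKM. In the F test across DMSO groups 0 of 7 were called, beside 12% of tested genes, and KDM4A alone had an unadjusted p under 0.05 (adjusted p = 0.14, limma). KDM4A was called without both libraries that stood apart (adjusted p = 0.0244), as was KDM5B (0.041), among 48.4% of tested genes. KDM4A and KDM5A were called without the first HCC4006 dormant library (0.0354 and 0.0468) and without the second (0.0345 and 0.0473), with 43.1% of tested genes called in either setting.

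Over all 6 groups KDM5B spanned the widest range of means in FPKM, from 1.87 ± 0.18 FPKM in PC9 with DMSO to 24.02 ± 12.04 FPKM in dormant HCC4006 (SD, n = 2). Without the deviating library the top value was 15.5 FPKM, which was still the highest. Next below the top came dormant HCC827 at 9.09 ± 0.26 FPKM, then HCC4006 with DMSO, dormant PC9 at 3.45 ± 1.32 FPKM and HCC827 with DMSO at 2.03 ± 0.05 FPKM. KDM5A and KDM3A both had their highest mean in dormant HCC827, at 6.97 ± 0.17 and 5.55 ± 0.98 FPKM, and their lowest in PC9 with DMSO. KDM1A was highest in HCC4006 with DMSO, at 9.02 ± 2.28 FPKM, and lowest in dormant PC9, at 2.85 ± 0.18 FPKM. Of 45 pairs of neighbours in these orders 15 had libraries that did not overlap; of the 35 that could be tested 0 were called, and the lowest adjusted p was 0.0893, for KDM5B in dormant HCC4006 against dormant HCC827 (limma). Of groups farther apart, PC9 with DMSO and dormant HCC827 differ in both line and treatment, and 14.4% of tested genes were called between them. PC9 with DMSO minus dormant HCC827 was -1.65 ± 0.45 for KDM3A (adjusted p = 0.037), -1.84 ± 0.43 for KDM5A (adjusted p = 0.0193) and -1.81 ± 0.45 for KDM5B (adjusted p = 0.024, limma). Dormant PC9 minus dormant HCC4006 was -2.44 ± 0.45 for KDM5B (adjusted p = 0.00444, limma), where 32.4% of tested genes were called. Dormant HCC4006 holds a library that stood apart. Further called pairs, most of them with dormant HCC4006, are not listed here.

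The make-up of demethylase RNA differed between groups when each gene was given as a share of the summed FPKM of the 9. KDM1A held the largest share in each DMSO group, at 41.2% in PC9, 27.2% in HCC827 and 39.4% in HCC4006. In HCC827 this held only in the first DMSO library, at 36.5%, while the second, which stood apart, gave KDM1A 18.0% and KDM5A 23.9%. In dormancy KDM5B held the largest share in HCC827 and HCC4006, at 24.7% and 44.8%. In dormant PC9 KDM2A led the first library at 22.4% and KDM1A the second at 21.5%. KDM5B took 10.5%, 11.6% and 19.7% with DMSO and 19.7% in dormant PC9. The first HCC4006 dormant library, the one that did not stand apart, gave KDM5B 34.7% and the second 54.9%, both above the DMSO libraries at 20.9% and 18.5%. KDM1A took 27.5% and 3.23% of these dormant libraries. No test was made on the shares.

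**Figure D3:**
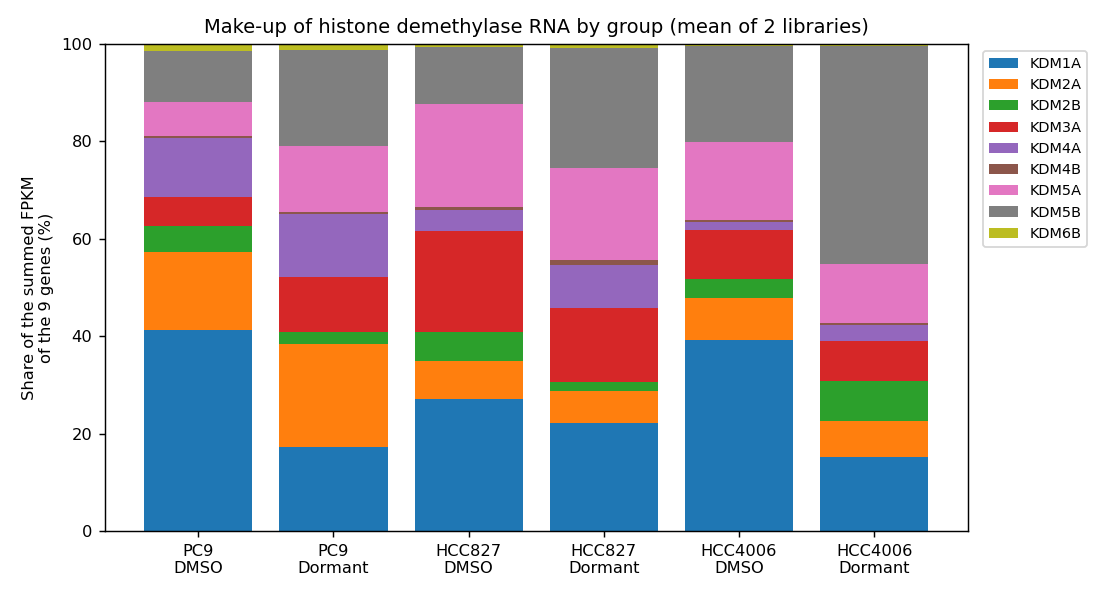
Share of each gene in the summed FPKM of the 9 histone demethylases (%), mean of 2 libraries for each line and treatment. The grey KDM5B section grows from 19.7% to 44.8% in HCC4006 and from 11.6% to 24.7% in HCC827, and the blue KDM1A section is largest in PC9 with DMSO at 41.2%.

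Across libraries, KDM3A and KDM5A had the most alike levels of any pair of the 7 genes. Their Pearson correlation of log2(FPKM + 1) was 0.94 over 12 libraries and 0.95 over the 10 left without those that stood apart. KDM5A and KDM5B correlated at 0.71 and 0.89. KDM1A and KDM2B gave -0.41 over 12 libraries and 0.81 over 10. The libraries share lines and treatments, and these values are descriptions without a test. Among all tested genes, those most like KDM5B were GNPTAB (r = 0.98), RNF146 (0.98) and TFDP2 (0.98), and those most like KDM3A were SCAMP1 (0.96), TMEM161B-AS1 (0.94) and KDM5A (0.94). KDM5A was most like ENSG00000168614, which the table names by identifier alone (r = 0.97), IFIT5 (0.95) and ZNF223 (0.95). KDM1A had FN3KRP (0.96), KRTCAP3 (0.94) and PARP1 (0.93), and KDM4A had SLC8B1 (0.92), GCNT2 (0.91) and SRC (0.90). KDM2A came nearest to TGOLN2 (0.88), TMEM254-AS1 (0.87) and CNOT4 (0.87). The genes nearest to KDM2B, SPIN4 (0.98), EFNB2 (0.98) and ANP32A (0.98), stood at 0.79, 0.77 and 0.80 over 10 libraries.

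**Figure D4:**
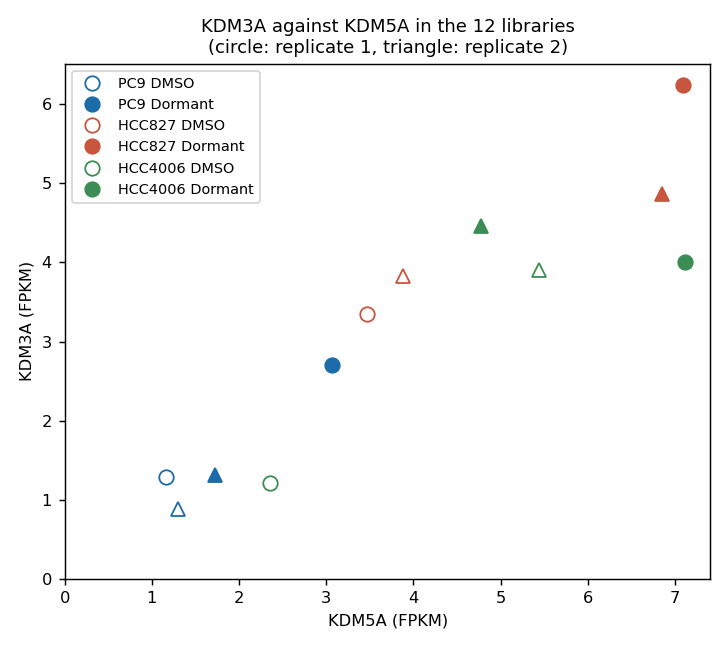
KDM3A against KDM5A, both in FPKM, in the 12 libraries (open: DMSO, filled: dormant; colour: line; shape: replicate). PC9 with DMSO lies lowest on both axes and dormant HCC827 holds the highest KDM3A values, 6.25 and 4.86 FPKM.

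Genes that act with or against these enzymes were counted in the mean of the lines, where 10.9% of all tested genes were called higher and 4.55% lower; with lists this short, counts near those shares say nothing about a list. Of 11 tested among 14 other histone demethylases 1 was called higher and 0 lower, with a median difference of 0.44. That gene, KDM6A, the H3K27 demethylase also called UTX, averaged 0.63 ± 0.34, 2.89 ± 0.17 and 2.43 ± 1.37 FPKM with DMSO in PC9, HCC827 and HCC4006 and 1.14 ± 0.20, 8.35 ± 0.66 and 8.49 ± 3.93 FPKM in dormancy (SD, n = 2). KDM6A rose by 1.04 ± 0.25 (limma adjusted p = 0.022), and its adjusted p was 0.0502 with median of ratios scaling, 0.0755 with quality weights and 0.0602 to 0.0911 with a PC9, HCC827 dormant or the first HCC4006 DMSO library left out.

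KDM1A partners in the CoREST and related complexes gave 0 calls among 10 tested (1 higher at an unadjusted p under 0.05; median 0.48). KDM2B partners in the variant Polycomb complex 1 gave 0 among 8 (1 higher unadjusted; median 0.30). The opposing enzymes were also without calls: H3K4 methyltransferases and their core subunits 0 of 8 (1 lower unadjusted; median 0.10), H3K9 methyltransferases 0 of 6 (2 lower; median 0.08), Polycomb repressive complex 2 0 of 7 (1 higher, 2 lower; median 0.11) and H3K36 methyltransferases 0 of 5 (0 unadjusted; median 0.08). Of 8 tested genes of 2-oxoglutarate, succinate and fumarate metabolism, which make or remove the cofactor of the Jumonji enzymes and its competitors, 1 was called higher, with a median of -0.32. It was IDH1, the cytosolic isocitrate dehydrogenase that makes 2-oxoglutarate, at 1.25 ± 0.27 (limma adjusted p = 0.0141), not called without either PC9 DMSO library, the first PC9 dormant library or either HCC827 dormant library (adjusted p = 0.0517 to 0.0581). In the main fit no gene of these lists was called in a single line.

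The counts of calls lower in these lists depended on scaling, as did those over all genes. In the mean, 1256 of 14699 tested genes were called lower with median of ratios scaling and 1316 with quantile normalization, in place of 669. The shares called in either direction were 16.7% and 17.6%. With median of ratios scaling and with quantile normalization, WDR5 among the H3K4 subunits and the H3K9 methyltransferases SUV39H1 and SUV39H2 were called lower, as were EZH2 of Polycomb repressive complex 2 and, with quantile normalization, EED. With median of ratios scaling the list medians turned negative, to -0.11 for H3K4, -0.13 for H3K9, -0.18 for Polycomb repressive complex 2 and -0.12 for H3K36, and that of cofactor metabolism was -0.53. In cofactor metabolism IDH1 stayed called higher under both scalings, and IDH3A, SDHB and FH were called lower with median of ratios scaling and IDH3A with quantile normalization. Among other histone demethylases JMJD6 was called lower with quantile normalization, and KDM6A was called higher. Quantile normalization also called EZH2 lower in HCC827, where it called 6.59% of tested genes in either direction.

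Without both libraries that stood apart, 30% of tested genes were called higher and 12.8% lower in the mean, and the counts moved with them. Of other histone demethylases, KDM3B, KDM6A, PHF2 and RIOX1 were then called higher and JMJD6 lower. RIOX1 was listed at 0 in all PC9 and HCC827 libraries. It passed the filter only through dormant HCC4006, at 1.37 and 9.74 FPKM, and its calls in this setting rest on the first of these. PHF2 also reached 1 FPKM only in dormant libraries, so for both genes the filter favoured a higher level in dormancy. KDM1A partners had 4 higher and 1 lower, the last being the deacetylase HDAC1 at -0.58 ± 0.14 (adjusted p = 0.00952, limma). Polycomb repressive complex 2, which writes the mark that KDM6A and KDM6B remove, had 0 higher and 3 lower (EZH2, EED and RBBP7). Among the methyltransferases, the H3K9 enzyme SUV39H1 was called lower at -1.19 ± 0.15 (adjusted p = 0.000334, limma), as were the H3K4 subunit WDR5 and the H3K36 enzyme NSD2, with 0 higher. In cofactor metabolism IDH1 and OGDH were called higher and IDH3A, SDHB and FH lower, and KDM2B partners had 0 (1 higher unadjusted). In the same setting PC9, where 8.65% of tested genes were called lower, had 4 of 7 genes of Polycomb repressive complex 2 called lower (EZH2, EED, RBBP4 and RBBP7), with SUV39H1, SUV39H2, NSD2, HDAC1 and SDHB. In HCC827 KDM6A was called higher and JMJD6 and SUV39H1 lower, and in HCC4006 IDH1 and RIOX1 were called higher and SUV39H1 lower.

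**Figure D5:**
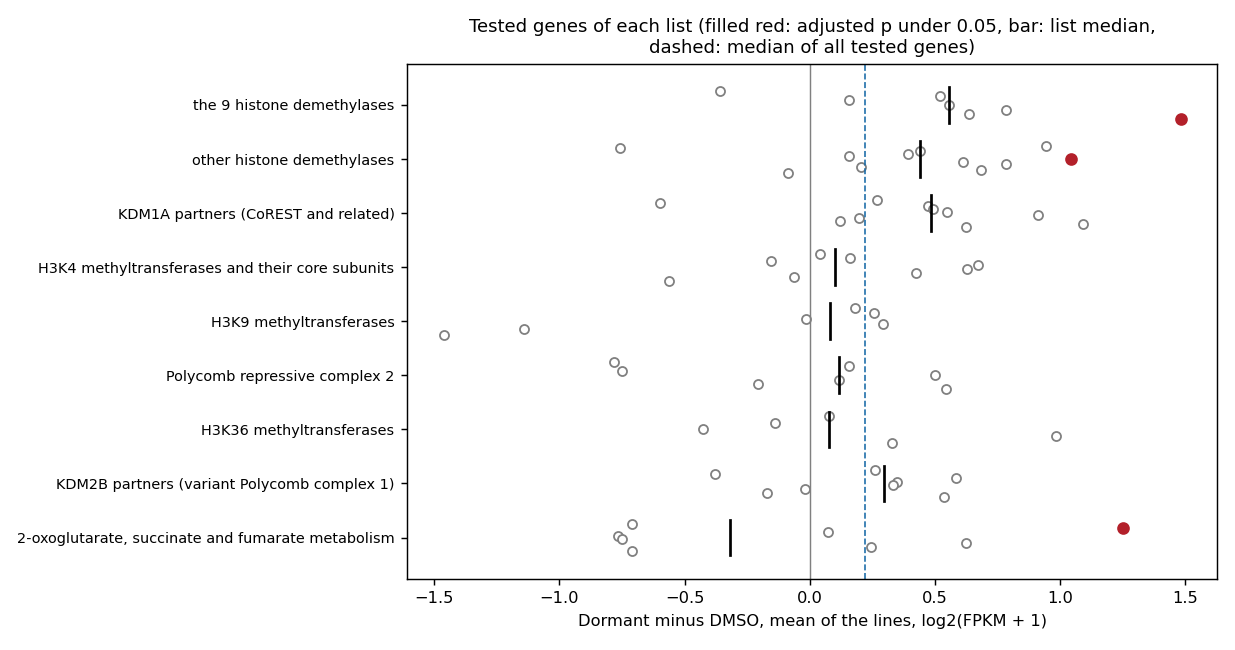
Dormant minus DMSO in the mean of the lines on the log2(FPKM + 1) scale for each tested gene of the 9 lists; filled red points were called at an adjusted p under 0.05, bars are list medians and the dashed line is the median of all tested genes, 0.22. The red points are KDM5B at 1.48, KDM6A at 1.04 and IDH1 at 1.25.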

How the data were processed

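The deposited values are FPKM, computed by the authors. The tools named are DESeq2 1.10.1, STAR 2.5.1b and Cufflinks 2.2.1, on the builds GRCh37 and hg19, per the submitters' processing notes; the role of each tool is not given in the sources used here. The table holds 24 value columns, 2 for each of the 12 libraries, and what distinguishes the columns is not stated; both were averaged and counted as 1 library. Values were analysed as log2(FPKM + 1) without rescaling. The 14699 genes that reached 1 FPKM in 2 or more libraries were tested. Linear models came from limma 3.58.1 under R 4.3.3, with each of the 6 groups as a coefficient (lmFit, eBayes with trend; 6 residual and 3.8 prior degrees of freedom), so all groups share 1 estimate of each gene's spread. Tests were two-sided and adjusted by Benjamini-Hochberg over all tested genes. Tables and figures were made with Python 3.11.15, pandas 2.3.3, numpy 2.4.6 and matplotlib 3.10.9.

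The text names all 9 genes, the 3 tested genes that correlate best with each of the tested ones, and up to 3 called genes per list with the largest difference in the mean of the lines; genes named for the setting without 2 libraries, and the cell type markers, are beyond that rule. Members, lists, tests and the 2 libraries that stood apart were chosen with earlier results of these data known. Y-linked relatives were left out, and a result for a gene of the lists is not reported here, though fits and counts include it. Alternatives were other pseudocounts, filters, scalings, single columns, libraries left out, a replicate block, quality weights and each line alone. The quality weights came out equal for both libraries of each group. They were 0.0935 in dormant HCC4006, 0.422 in HCC827 with DMSO and 4.51 in PC9 with DMSO. They therefore do not set a library that stood apart below its replicate.

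The procedure was tested on simulated data with 100 genes changed by 1 log2 unit and 100 by 2. No other gene was changed, spreads were shuffled between genes, and all libraries of a gene had the same spread. The real data had more called genes and 2 libraries that stood apart, so the shares found may not hold for them. In the mean of the lines, 22% and 72% of them were called. The corresponding shares in single lines were 0% and between 2% and 16%, so a gene not called in a line is not shown to be unchanged there. The depth is unknown because no counts were used.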

Additional observations from a re-analysis of the deposited data

How the results depend on the processing

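KDM5B was called higher in the mean of the lines under every alternative run. The number of the 7 genes called there, 1 in the report, was 2 with a pseudocount of 0.1 or 0.5 (KDM4A and KDM5B), 3 without both libraries that stood apart (KDM4A, KDM5A and KDM5B), and 1 to 5 with 1 library left out, the 5 among 50.3% of all tested genes called. In PC9 the count of 0 became 1 without both libraries (KDM1A), 2 with array quality weights and 2 with the line fitted alone (KDM1A and KDM2B), where 21.7%, 30.5% and 18.2% of tested genes were called, and stayed at 0 to 0 with 1 library left out. In HCC827 the count of 0 became 1 with the R2 columns alone, 1 without both libraries and 1 with quality weights (KDM5B), and ran from 0 to 2 with 1 library left out. In HCC4006 the count of 1 became 0 with no filter, scaling by median of ratios, quantile normalization, quality weights and the line fitted alone, and ran from 0 to 4 with 1 library left out, the 4 among 58.6% of tested genes; KDM5B then had an adjusted p (limma) of 0.052, 0.0578, 0.0512, 0.438 and 0.604. The number differing between untreated lines, 0, was 1 under median of ratios scaling and 1 under quantile normalization (KDM4A), 2 without both libraries (KDM4A and KDM5B), 2 with quality weights (KDM4A and KDM5A) and 0 to 2 with 1 library left out, each 2 among 42.6% to 48.4% of tested genes. The number whose difference varied between lines, 0, ran from 0 to 3, the 3 among 54.8% of tested genes, and the number of group means of at least 1 FPKM from 35 to 37 of 54, with 1 library left out. A group left with 1 library was assumed to vary like the others. Of all tested genes, 14.4% and 15.6% were called in the mean with pseudocounts of 0.1 and 0.5. In HCC827 the share was 4.34% with the R2 columns alone and 11% with quality weights. In HCC4006 the share was 0.163% with quality weights and 0% with the line fitted alone, so a lost call there says nothing about KDM5B. Between untreated lines the share was 16.1% under median of ratios scaling and 18.2% under quantile normalization.

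Signs turned for KDM1A in HCC4006 (0.43 without the second HCC4006 dormant library and 0.43 without both; -1.76 to 0.43 with 1 library left out), KDM1A in the mean (0.0057 without the former; -0.72 to 0.0057), KDM2A in PC9 (-0.12 without the first PC9 dormant library; -0.12 to 0.65), KDM4A in PC9 (-0.0056 with a pseudocount of 0.1, -0.059 under median of ratios scaling, -0.13 under quantile normalization, -0.46 without the first PC9 dormant library; -0.46 to 0.52) and KDM2B in the mean (-0.034 under median of ratios scaling, -0.12 under quantile normalization, -0.23 without the second HCC4006 dormant library, -0.18 without both; -0.23 to 0.55). The cause of these changes was not tested.

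Replicate numbers were not seen to pair the samples: same-numbered libraries deviated together with r = 0.091 in PC9, 0.037 in HCC827 and 0.168 in HCC4006. A library that stood apart enters the values of HCC827 and HCC4006, so a low r there cannot show that pairing is absent. With the replicate block, 1100 of all tested genes were called higher in the mean and 453 lower, KDM5B kept its call there (adjusted p = 0.0206, limma), and the HCC4006 count of 1 became 0 (KDM5B adjusted p = 0.0538). KDM4B and KDM6B could be tested only with no filter. With 2 libraries a group and unknown depth, even large differences in single lines could be missed. In the simulated data, single lines called 0% of genes changed by 1 log2 unit and 2% to 16% of those changed by 2.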
